A study of Mus musculus with 20 samples.

Results

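Among the 10 hearts of sedentary mice in a series of 20, 5 had a high and 5 a low level of Arntl, the gene of the circadian activator BMAL1. The sets were chosen by the Arntl level itself. A library with Arntl above 2 FPKM was called high, which took wild-type replicates 1 to 4 and replicate 1 of the hearts labelled knockout, and wild-type replicate 5 and labelled knockout replicates 2 to 5 were called low. FPKM, fragments scaled for transcript length and library size, is the unit of all levels given here. In the high libraries, listed here and below as wild-type replicates 1 to 4 and then labelled knockout replicate 1, Arntl was 3.13, 2.78, 4.36, 2.46 and 2.50 FPKM. In the low libraries, listed as wild-type replicate 5 and then labelled knockout replicates 2 to 5, it was 0.0658, 0.132, 0.137, 0.136 and 0.150 FPKM. The members just inside the limit were wild-type replicate 4 and labelled knockout replicate 1, and the nearest outside it was labelled knockout replicate 5. These levels rest on 335 to 562 Arntl reads in a high library and 11 to 23 in a low one. No library lay between 0.150 and 2.46 FPKM.

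The mice were male and 14 to 16 weeks old, with 5 per group. Sedentary wild-type mice and sedentary mice whose label is knockout of PGC-1α in cardiomyocytes, the coactivator of mitochondrial genes that Ppargc1a encodes, supplied the 10 hearts compared. The other 10 came from wild-type and labelled knockout mice that ran on a voluntary wheel for 6 weeks, and they serve here as libraries that the choice of sets did not use. RNA was taken from a piece of heart tissue, selected for poly-A tails and sequenced with a strand-specific kit. The labels do not name the promoter that drives Cre, the part of Ppargc1a that was deleted, the light schedule or the time of day at which hearts were taken. All libraries carry 1 batch label. Ppargc1a was at 14.8, 9.39, 15.4, 12.2 and 9.48 FPKM in wild-type sedentary hearts 1 to 5 and at 27.9, 18.8, 23.0, 18.2 and 26.5 FPKM in labelled knockout replicates 1 to 5, so this transcript was higher, not lower, where the label is knockout. The value is for the whole gene, and it checks nothing where only some exons are deleted.

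The circadian clock of a cell is a feedback loop of transcription. BMAL1 pairs with CLOCK or NPAS2 and activates genes with E-box motifs in their regulatory DNA, among them the Per and Cry genes, whose proteins then repress the pair, while receptors of the REV-ERB and ROR families repress and activate Arntl itself. In the heart the loop runs in cardiomyocytes and other cells, and it times the expression of genes of ion transport, fuel use and growth. Arntl and the Per genes therefore peak at opposite phases of the day.

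The libraries held 14.2 to 30.4 M reads. Depth was 16.9 to 27.2 M in the high and 15.3 to 25.0 M in the low libraries, and transcripts of the mitochondrial genome took 17.9 to 23.5% and 17.1 to 19.6% of reads. The sets were unequal in genotype, since 4 of 5 wild-type but 1 of 5 labelled knockout libraries were high, so each difference below is the high minus low difference with genotype as a term, on the log2(FPKM + 0.5) scale with its SE. On that scale the change of a gene of low level is understated. Because Arntl chose the sets, the differences between them describe these 10 hearts and no p is given for them. Summed levels of 12 lists of cell type markers overlapped between the sets for all lists but that of Schwann cells and neurons. Ventricular cardiomyocyte markers summed to 20829 to 26015 FPKM in high and 23580 to 25884 FPKM in low libraries, with no member at 0. The 7 markers of Schwann cells and neurons summed to 3.28 to 3.92 FPKM in high and 4.32 to 5.48 FPKM in low libraries, with 0 of 7 members separating the sets. Of 8 fibroblast markers 1 separated the sets, Pdgfra, a growth factor receptor named here after its values were seen, at 5.29, 5.20, 4.74, 3.27 and 5.33 FPKM in high and 2.67, 2.86, 3.00, 3.22 and 2.61 FPKM in low libraries, and the 8 summed to 166.7 to 184 and 152 to 220.1 FPKM. The part of these markers in the results was not tested. In such bulk tissue fewer cells of a type and less RNA per cell cannot be told apart.

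Of 13557 genes with a mean of at least 0.5 FPKM, 137 met a limma adjusted p below 0.05 as higher (percent called, 1.01) and 153 as lower (percent called, 1.13) in the high libraries, 2.14% in all. At least 2-fold were 27 of the higher and 22 of the lower genes. A second rule needs no model. It asks that the lone library of each genotype, the low wild-type and the high labelled knockout heart, lies beyond all 4 others of that genotype in directions that match, and it held for 1670 genes as higher (12.3%) and 1851 as lower (13.7%), or 26% of tested genes. All 290 genes that met the first rule also met the second. The sets of 5 did not overlap for 796 genes that were higher (5.87%) and 684 that were lower (5.05%) in the high libraries. The median difference over all tested genes was -0.04.

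The counts leaned on single hearts. Without labelled knockout replicate 1 the first rule gave 1 higher and 4 lower genes, and without wild-type replicate 5 it gave 5 and 17. Without wild-type replicate 4 it gave 1579 and 1167. Leaving out any 1 of the other 7 gave 23 to 64 higher and 30 to 81 lower genes. Wild-type replicate 4 was the high wild-type heart nearest to the low one in 176 of the 290 genes (60.7%), against 42.6% of all tested genes. Rescaled to a common sum (TPM), the first rule gave 940 higher and 84 lower genes, so that 91.8% of its genes were higher in place of 47.2%. The counts also went with the exon length of the gene. Over 4 equal bins from the shortest to the longest genes the median difference was -0.12, -0.09, -0.02 and 0.14, the higher genes numbered 10, 17, 40 and 70 and the lower genes 32, 55, 44 and 22. The part of length in the results was not tested.

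The partners of BMAL1 were higher where Arntl was high. Clock, which encodes its main partner, was at 4.64, 3.34, 5.08, 2.53 and 4.33 FPKM in the high and 1.28, 1.57, 1.38, 1.30 and 1.25 FPKM in the low libraries, a difference of 1.32 ± 0.19. Every high library lay above every low one. Npas2, whose protein can take the place of CLOCK, was at 1.67, 1.73, 1.66, 1.68 and 1.78 FPKM against 0.367, 0.571, 0.769, 1.12 and 1.25 FPKM, a difference of 1.02 ± 0.19. The high libraries were close to each other in Npas2 and the low ones spread over a wider range without reaching them. Arntl2, the second BMAL gene, showed no such split, at 0.625 to 0.955 FPKM in the high and 0.539 to 0.847 FPKM in the low libraries (difference 0.05 ± 0.14). Of the 3 tested genes of this list 2 met the first rule as higher, beside 1.01% of all tested genes.

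All 6 repressors of the loop were lower in the high libraries by the second rule and 4 of 6 by the first, with a list median of -1.53. The shares over all tested genes were 13.7% and 1.13%. Per2, a Period protein that carries the CRY proteins to the activators (minus strand of chromosome 1, 91415982 to 91459324 in GRCm38), was at 0.948, 1.32, 0.678, 2.91 and 1.74 FPKM in the high and 9.20, 10.5, 13.5, 11.4 and 12.4 FPKM in the low libraries, a difference of -2.45 ± 0.30. Wild-type replicate 4, the highest of its set, was still well under the lowest of the other set. Ciart, also called Chrono, a repressor that binds BMAL1 (minus strand of chromosome 3, 95878503 to 95882251), had the largest difference of the 6, at -2.75 ± 0.31. It was at 1.42, 1.99, 0.929, 1.84 and 1.76 FPKM against 18.7, 15.4, 12.2, 7.42 and 7.56 FPKM, and the low wild-type heart was the highest of all. Per3, a Period gene with a weaker part in the loop, was at 2.26, 3.50, 2.33, 2.34 and 2.53 FPKM against 8.60, 7.46, 8.24, 7.42 and 6.96 FPKM (difference -1.49 ± 0.14). Both lone hearts sat with the set they were placed in and not with their genotype. Cry2, a cryptochrome repressor, was at 5.63, 5.83, 5.71, 8.13 and 6.42 FPKM against 13.4, 13.1, 10.4, 11.4 and 12.6 FPKM (difference -0.94 ± 0.13), without overlap.

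Per1 and Cry1 separated the sets but did not meet the first rule. Per1, which also answers to glucocorticoids, was at 3.08, 8.44, 9.51, 19.8 and 11.5 FPKM against 31.9, 35.9, 31.7, 23.7 and 27.1 FPKM, a difference of -1.58 ± 0.46. It spread most within the high set, from replicate 1 of the wild type to replicate 4. Cry1, which represses late in the cycle, had a smaller difference of -0.49 ± 0.14, from 2.81 to 4.33 FPKM in the high to 4.56 to 6.12 FPKM in the low libraries.

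**Figure D1:**
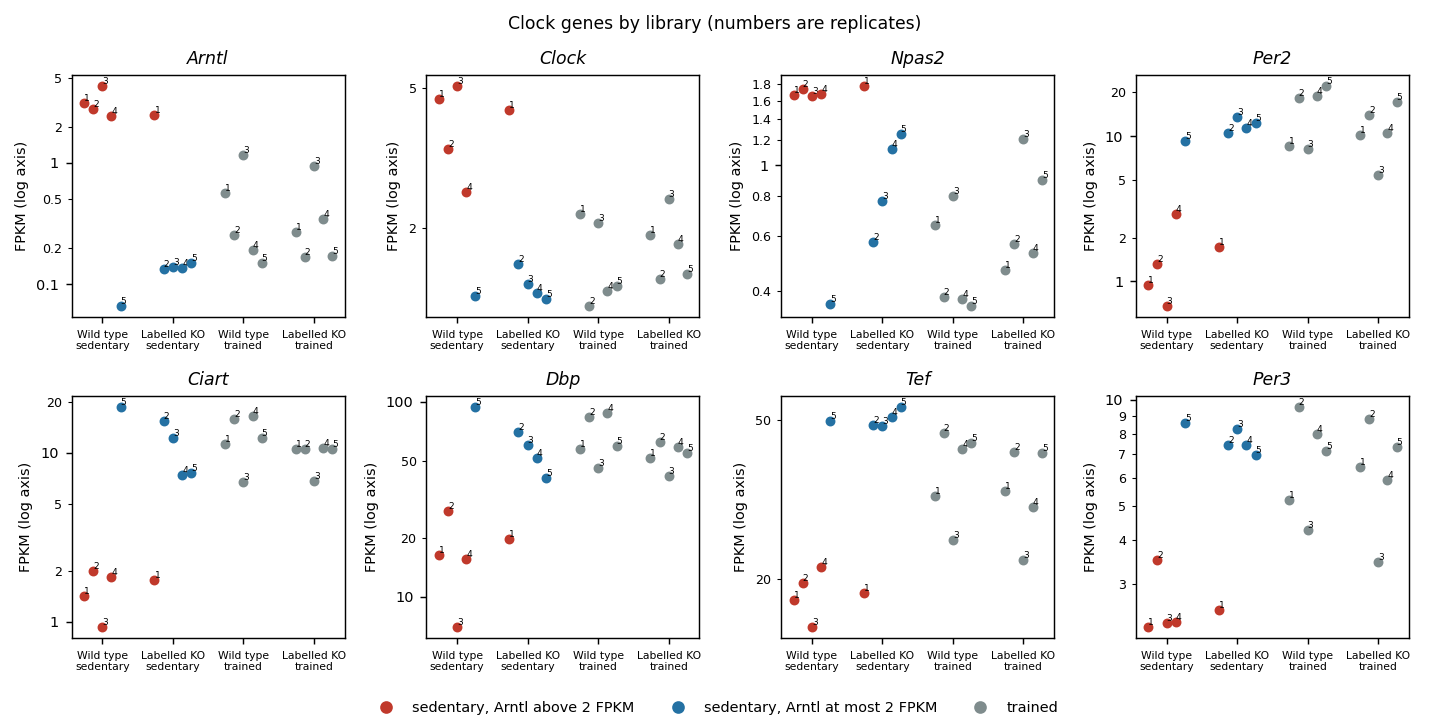
Level in FPKM on a log axis of 8 clock genes in each of the 20 libraries, by genotype and training, with the replicate number beside each point and the sedentary sets in colour (high Arntl red, low Arntl blue, trained grey). In each panel the lone low wild-type heart (replicate 5) and the lone high labelled knockout heart (replicate 1) lie with the libraries of their Arntl set and not with those of their genotype, as for Per2 at 9.20 and 1.74 FPKM.

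Some of these genes have, close to an annotated start site, a motif through which the loop is known to act. RefSeq promoters of GRCm38.p6, 250 bases before to 50 after a start site, were searched on both strands for the E-box CACGTG, which reads the same on both, for the D-box TTATGTAA that the proteins of Dbp, Tef and Hlf bind, and for TAGGTCA, the core of the element bound by REV-ERB and ROR receptors. The windows below are examples, shown because they belong to clock genes, shared outputs and the transporter gene Slc41a3 described here. Each holds a match in capitals, and positions count from the start site, with negative numbers before it. The windows of Per1, Tef, Tspan4 and Slc41a3 lie inside their gene models, before a start site further in. None of the printed matches overlaps another. The E-box matches were these, at -116, -58 and -44 for Ciart, where the windows at -58 and -44 overlap, at -166 for Per1, at -60 for Cry1, at -127 and -138 for the 2 start sites of Tef, at -51 for Tspan4, at -78 for Coq10b and at -213 for Slc41a3.
Ciart, chr3:95882327-95882356, minus strand: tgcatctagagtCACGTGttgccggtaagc
Ciart, chr3:95882269-95882298, minus strand: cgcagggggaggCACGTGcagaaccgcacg
Ciart, chr3:95882255-95882284, minus strand: cgtgcagaaccgCACGTGtctgggaggggg
Per1, chr11:69098771-69098800, plus strand: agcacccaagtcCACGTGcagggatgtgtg
Cry1, chr10:85185097-85185126, minus strand: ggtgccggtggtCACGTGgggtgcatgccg
Tef, chr15:81802534-81802563, plus strand: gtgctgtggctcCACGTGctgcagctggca
Tef, chr15:81811264-81811293, plus strand: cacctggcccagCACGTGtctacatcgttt
Tspan4, chr7:141476317-141476346, plus strand: cccccatggagcCACGTGcagagccacgag
Coq10b, chr1:55052680-55052709, plus strand: ggcggcactggaCACGTGcgtcagcctagc
Slc41a3, chr6:90619021-90619050, plus strand: agcagcccatggCACGTGtgcagaggacac

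Per3 held 2 D-boxes, at -205 and -158, and Arntl and Leo1 each held the receptor core, at 30 and -63. They were picked since Arntl and Leo1 are high where Per3 is low. The receptor core was also found for Nfil3, at -12, whose levels overlapped between the sets. Coq10b, called lower, held a D-box at -162. These 2 matches are not printed.
Per3, chr4:151044852-151044881, minus strand: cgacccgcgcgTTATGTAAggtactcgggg
Per3, chr4:151044805-151044834, minus strand: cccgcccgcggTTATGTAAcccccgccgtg
Arntl, chr7:113207530-113207558, plus strand: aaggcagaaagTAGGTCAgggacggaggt
Leo1, chr9:75441450-75441478, plus strand: ctggagaaaacTAGGTCAcaaaagtaaag

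E-boxes were also found for Bhlhe41, Klf15, Adh1, Rcan1 and Irs1, which are not printed. Of the 4 repressors called lower, one was found for Ciart alone, and Per2 had no matched entry and was not searched. An E-box was found in 5 of the 10 repressors and output factors of the clock with a promoter entry, in 0 of 4 activators, in 22 of 116 genes called lower (19.0%) and in 9 of 98 called higher (9.18%). The share was 11.8% of the 9572 tested genes with an entry and 8.09% of all 27025 genes of the table. The D-box was in 1.11% and the receptor core in 2.97% of all genes of the table. Over the tested genes with an entry the shares were 0.64% and 2.18%. In genes called lower they were in 2 and 3 of 116, and in genes called higher in 0 and 2 of 98. Per2, Wee1, Spon2 and Dgat2 were not matched to an entry. A match describes these letters only and is no evidence that a factor was bound.

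Genes of the nuclear receptors overlapped between the sets. Nr1d1, the gene of REV-ERBα, was at 49.7, 49.4, 24.3, 47.0 and 36.3 FPKM in the high and 39.4, 25.4, 23.5, 22.8 and 17.1 FPKM in the low libraries (difference 0.38 ± 0.26), with the sets overlapping. Nr1d2, the gene of REV-ERBβ, was at 10.9 to 17.2 FPKM and 13.1 to 20.1 FPKM (difference -0.13 ± 0.17). Of 4 tested members of this list 0 were called by either rule. Among the kinases and ubiquitin ligases that set the stability of PER and CRY proteins 0 of 6 were called by the first rule and 1 by the second. Over all tested genes the second rule held for 26% and the first for 2.14%. The list median was -0.05, and 0.03 on the TPM scale.

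The 6 output factors pass the rhythm on to other genes. Of them 3 were called lower and 0 higher (list median -1.01), beside 1.13% and 1.01% of all tested genes. The 3 were the PAR bZIP activators. Dbp was at 16.5, 27.6, 7.0, 15.7 and 19.9 FPKM in the high and 94.5, 70.0, 60.3, 51.2 and 40.9 FPKM in the low libraries (difference -2.02 ± 0.41). Tef was at 17.7, 19.6, 15.2, 21.4 and 18.5 FPKM against 49.8, 48.7, 48.4, 51.0 and 54.0 FPKM (-1.42 ± 0.11), and the difference was -1.42 within the wild type and -1.42 within the labelled knockout. Hlf was at 3.13, 2.95, 3.84, 4.19 and 2.62 FPKM against 9.72, 7.14, 8.70, 7.31 and 6.99 FPKM (-1.36 ± 0.12). Each of the 3 separated the sets without overlap. The repressor Bhlhe41, also known as DEC2, did so by a smaller difference (-0.65 ± 0.15) that did not meet the first rule. Bhlhe40, or DEC1 (-0.10 ± 0.20), and Nfil3, the repressor that competes for D-boxes (0.23 ± 0.27), overlapped between the sets. The gene models of Ciart, Per3, Dbp and Tspan4 overlap those of C920021L13Rik, Camta1, Sphk2 and Chid1, and reads in the shared stretches cannot be assigned with certainty. The same limit holds for other genes of the clock lists. Among them, Cry2, Usp2 and Wee1 share 23417, 28607 and 21241 bases with D930015M05Rik, Gm49380 and 1600010M07Rik on the other strand.

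Among 17 tested genes known to cycle in many organs, 5 were called lower and 2 higher, beside 1.13% and 1.01% of all tested genes. Tspan4, a tetraspanin, was at 10.1, 11.4, 7.02, 9.49 and 9.89 FPKM in the high and 27.7, 29.9, 31.3, 27.7 and 24.9 FPKM in the low libraries (-1.50 ± 0.15). Wee1, the kinase that holds cells before mitosis, was at 3.19, 2.98, 3.98, 3.87 and 2.34 FPKM against 7.88, 10.8, 11.2, 10.4 and 11.2 FPKM (-1.54 ± 0.18), with labelled knockout replicate 1 the lowest of the 10. The others called lower were Usp2, a deubiquitinase (-0.99 ± 0.18), Herpud1 of endoplasmic reticulum quality control (-1.01 ± 0.22) and Coq10b, a coenzyme Q binding protein of mitochondria (-0.92 ± 0.13). Tfrc, the transferrin receptor that takes up iron, was the largest on the higher side, at 22.6, 16.1, 22.8, 8.02 and 14.0 FPKM against 5.26, 4.08, 3.31, 4.58 and 4.44 FPKM (1.60 ± 0.31). Wild-type replicate 4 was the high library nearest to the low ones in Tfrc. Leo1, a subunit of the PAF1 elongation complex, was at 4.38, 4.41, 4.87, 4.73 and 4.69 FPKM against 2.21, 1.97, 1.85, 2.07 and 2.40 FPKM (0.96 ± 0.09), with each set tightly grouped. Tsc22d3, a glucocorticoid target also called GILZ, was at 15.3 to 38.2 FPKM in the high and 32.3 to 55.9 FPKM in the low libraries and overlapped. Of the 14 tested glucocorticoid targets 0 were called by the first rule, beside 2.14% of all tested genes, with a list median of -0.58. Klf9, another of them, had a difference in the other direction (0.45 ± 0.12).

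**Figure D2:**
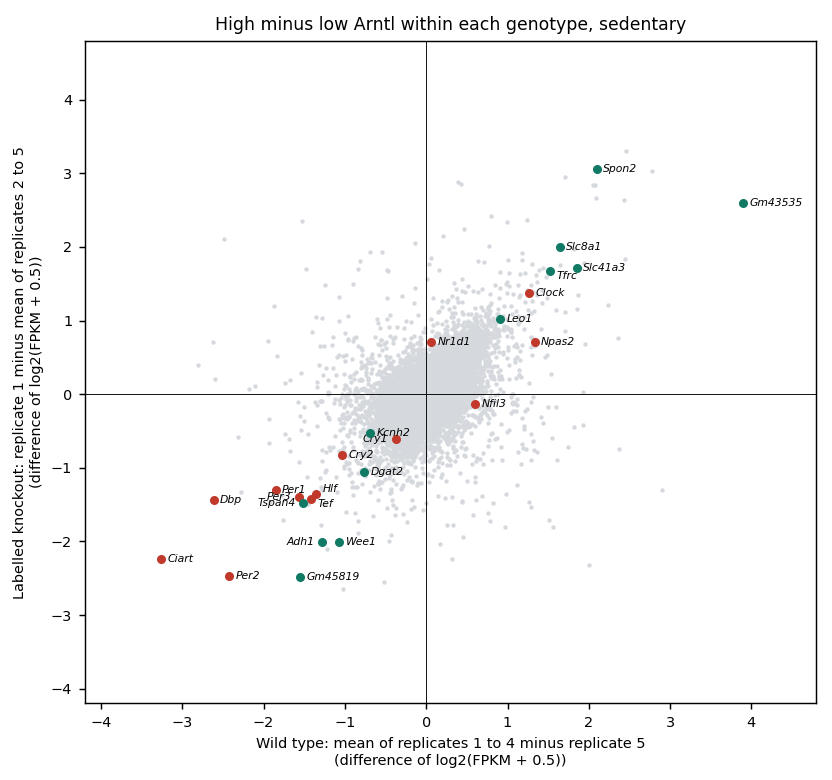
High minus low difference of log2(FPKM + 0.5) within the sedentary wild type (x axis, replicates 1 to 4 minus replicate 5) and within the labelled knockout (y axis, replicate 1 minus replicates 2 to 5), for 13557 tested genes in grey, with clock genes in red and others named in the text in green. Per2 at -2.43 and -2.47 and Tef at -1.42 in both lie near the diagonal, while Ciart was further from 0 in the wild type (-3.26 against -2.23).

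Among called genes outside the clock the largest difference toward the high libraries belonged to Gm43535 (3.24 ± 0.48), a transcript of no assigned kind that lies within Lrrc2 on the same strand, so that its reads cannot be told from those of Lrrc2. Spon2, a secreted matrix protein, was at 4.42, 3.86, 2.81, 3.21 and 7.51 FPKM in the high and 0.443, 0.793, 0.482, 0.417 and 0.233 FPKM in the low libraries (2.58 ± 0.25), with labelled knockout replicate 1 the highest. Slc8a1, the sodium-calcium exchanger NCX1 that removes calcium from cardiomyocytes (minus strand of chromosome 17, 81373105 to 81738377), was at 47.6, 32.7, 57.8, 18.7 and 43.7 FPKM against 11.2, 11.6, 9.10, 9.05 and 13.1 FPKM (1.82 ± 0.33). The sets did not overlap, though wild-type replicate 4 was closer to the low libraries than to replicate 3. Slc41a3, a magnesium transporter (plus strand of chromosome 6, 90604725 to 90646412), was at 39.8, 35.4, 40.2, 40.8 and 16.2 FPKM against 10.5, 6.54, 3.69, 4.48 and 4.17 FPKM (1.78 ± 0.16). Its 4 high wild-type hearts agreed closely, and the high labelled knockout heart lay under them and above every low library.

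Other genes on the higher side were Epha4, an ephrin receptor (1.45 ± 0.19), Sacm1l, a lipid phosphatase of the endoplasmic reticulum (1.43 ± 0.31), and the zinc finger gene Zfp955a (1.42 ± 0.31). The features Gm17024 (1.89), Gm24430 (1.81) and Gm16574 (1.80) overlap Ifrd1, Fbxo7 and Airn and are uncertain for that reason. Gm24430 also had at most 4 reads in any sedentary library and 0 FPKM in every low one. With Tfrc, 8030462N17Rik (1.48) completes the 12 largest. Picked after their values were seen were Colq, the collagen tail of acetylcholinesterase (1.33 ± 0.13), Irs1, an insulin receptor substrate (1.33 ± 0.26), and Fbn1, fibrillin of the matrix (0.97 ± 0.20). Each was called higher and separated the sets, Irs1 at 0.832 to 2.58 FPKM against 0.353 to 0.634 FPKM.

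On the lower side the 12 largest differences held 8 clock genes or shared outputs, namely Ciart, Per2, Dbp, Wee1, Tspan4, Per3, Tef and Hlf. The other 4 were Gm45819, Cys1, Adh1 and Gm22027, which lies in Sf3b4 and is uncertain. Gm22027 also had at most 8 reads in any sedentary library. Gm45819, a transcript of no assigned kind (plus strand of chromosome 7, 110119990 to 110121740), was at 2.73, 1.71, 3.07, 1.91 and 1.65 FPKM in the high and 7.74, 11.7, 10.1, 10.2 and 14.4 FPKM in the low libraries (-2.02 ± 0.23). It ends 305 bases before the annotated start of Wee1 on the same strand and also lies within 1600010M07Rik on the other, and its reads may include some of either. Cys1, the cilium protein cystin, was at 1.10, 1.78, 1.15, 1.78 and 0.965 FPKM against 4.00, 5.04, 6.15, 6.63 and 5.39 FPKM (-1.66 ± 0.21). Adh1, an alcohol and retinol dehydrogenase, was at 3.06, 3.66, 3.32, 5.93 and 2.31 FPKM against 10.1, 9.76, 11.6, 9.75 and 12.6 FPKM (-1.65 ± 0.22). Labelled knockout replicate 1 was the lowest library for all 3 of Gm45819, Cys1 and Adh1. Picked after their values were seen, Mthfd1l of mitochondrial folate metabolism (-1.13 ± 0.14) and the epoxide hydrolase Ephx1 (-0.95 ± 0.11) were called lower too.

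Counts for genes of the heartbeat are set beside first-rule shares of 1.01% higher and 1.13% lower over all tested genes. Of 12 calcium handling genes 2 were called higher and 0 lower (list median 0.26), Slc8a1 and Asph, which encodes junctin of the calcium release unit (0.46 ± 0.08). By the second rule 6 of 12 were higher, beside 12.3% of all tested genes. Among them was the release channel Ryr2 at 66.0, 52.9, 75.0, 47.3 and 53.1 FPKM in the high and 39.1, 34.9, 28.5, 30.6 and 36.6 FPKM in the low libraries (0.65 ± 0.16). The Ryr2 sets were apart by less than the spread within the high one. Of 15 repolarising potassium channel genes 1 was called, lower. Kcnh2, the channel of the rapid delayed rectifier current, was at 19.7, 21.3, 23.7, 28.8 and 23.6 FPKM against 37.7, 30.8, 34.8, 33.7 and 38.0 FPKM (-0.61 ± 0.13). By the second rule 4 of the 15 were higher, among them Kcnd2 (0.68 ± 0.20), and 1 lower, beside 12.3% and 13.7% of all tested genes. Of 12 genes of depolarising and pacemaker channels 0 were called, and the connexin Gja1 had a difference of 0.66 ± 0.19 with overlap.

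Contractile genes were not called in either direction by the first rule (0 of 16, median -0.16), beside 2.14% of all tested genes. The titin gene Ttn was at 22.4 to 49.5 FPKM in the high and 21.3 to 24.2 FPKM in the low libraries (0.76 ± 0.23) and the titin cap gene Tcap at 822 to 1578 FPKM and 1202 to 2639 FPKM (-0.93 ± 0.24), both with overlap. Myh7, the slow myosin of the fetal heart, was lower without overlap at 48.9 to 84.2 FPKM against 89.7 to 165 FPKM (-0.52 ± 0.20), short of the first rule. Of 11 stress and fetal genes 1 was called higher. Rcan1, the calcineurin regulator, was at 51.5, 42.5, 36.2, 39.4 and 40.9 FPKM against 18.1, 22.8, 17.4, 24.2 and 23.8 FPKM (1.04 ± 0.15). Its lowest high library lay well over its highest low one. Nppb, the gene of the B-type natriuretic peptide, was higher in labelled knockout hearts of both sets and overlapped between sets (0.80 ± 0.30).

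**Figure D3:**
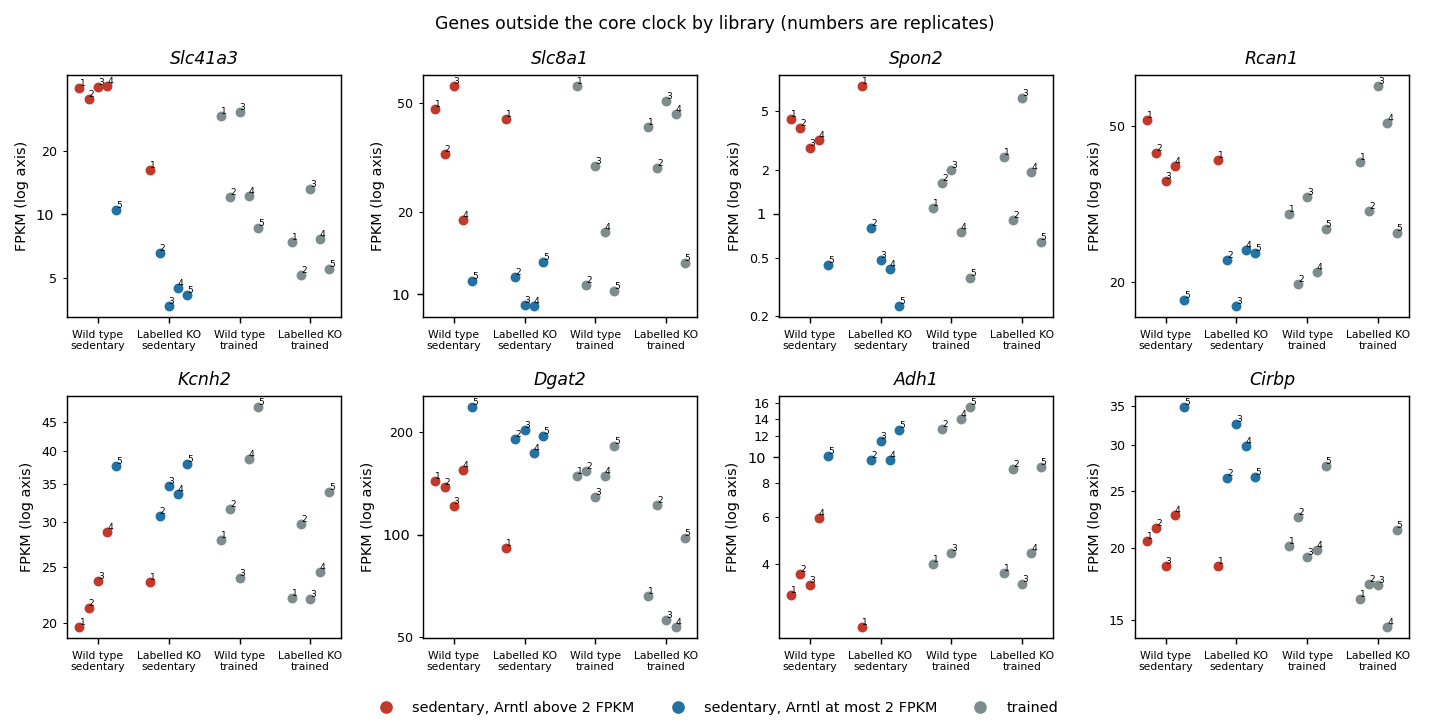
Level in FPKM on a log axis of 8 genes outside the core clock in each of the 20 libraries, by genotype and training, with replicate numbers (high Arntl red, low Arntl blue, trained grey). In sedentary hearts the coloured sets do not overlap in any panel, as for Rcan1 with 36.2 FPKM as the lowest high and 24.2 FPKM as the highest low library, whereas trained hearts spread over both ranges for Slc8a1 and Rcan1.

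Among 24 heart metabolic genes that had been linked to the clock 1 was called lower and 1 higher (list median 0.17). The shares over all tested genes were 1.13% and 1.01%. Dgat2, which makes triglyceride, was at 144, 138, 122, 155 and 91.1 FPKM in the high and 237, 191, 203, 173 and 195 FPKM in the low libraries (-0.91 ± 0.10), and labelled knockout replicate 1 had the lowest level of the 10. Gsk3b, a kinase that restrains glycogen synthesis, was at 8.04, 7.06, 8.60, 5.26 and 7.04 FPKM against 4.33, 4.49, 4.23, 4.32 and 4.13 FPKM (0.66 ± 0.14). Each separated the sets. Ppara, the fatty acid receptor, was at 5.02 to 10.6 FPKM against 1.55 to 4.03 FPKM (1.10 ± 0.31) and also did, without meeting the first rule. Of 25 coactivators and partners of PGC-1 1 was called higher, the corepressor Ncor1 at 8.98 to 13.7 FPKM against 6.21 to 7.05 FPKM (0.61 ± 0.13). Ppargc1a overlapped (0.39 ± 0.18). None of the 20 TCA cycle, 20 fatty acid oxidation and 36 complex I genes was called, at medians of -0.04, -0.04 and -0.12 that were 0.05, 0.06 and -0.02 on the TPM scale.

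In the remaining lists calls by the first rule stand beside 1.01% higher and 1.13% lower over all tested genes. Of 16 heat and cold responsive genes 1 was called lower, Cirbp, the cold-induced RNA-binding protein, at 20.5, 21.6, 18.6, 22.7 and 18.6 FPKM in the high and 34.9, 26.3, 32.6, 29.9 and 26.4 FPKM in the low libraries (-0.67 ± 0.10), and 1 higher, the chaperone Hsp90aa1 (0.66 ± 0.12). The sets separated for Cirbp and overlapped for Hsp90aa1. Of 17 immediate early genes 1 was called lower, Ier3 (-1.01 ± 0.18), at 13.4 to 25.4 FPKM against 36.2 to 61.1 FPKM. The integrated stress response (15 tested), angiogenic signalling (13) and FoxO (14) lists had 0 called members. At a share of 2.14% over all tested genes, 0 in lists of this size says little about their members.

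The 10 trained hearts let Arntl be tested where it had not chosen the libraries. There Arntl was at 0.564, 0.254, 1.16, 0.192 and 0.150 FPKM in wild-type replicates 1 to 5 and at 0.268, 0.167, 0.937, 0.342 and 0.171 FPKM in labelled knockout replicates 1 to 5. These levels rest on 17 to 160 Arntl reads in a library. Only wild-type replicates 1 and 3 and labelled knockout replicate 3 were above the 0.5 FPKM added before the log. No trained heart reached the limit of 2 FPKM. The slope on log2(Arntl + 0.5), with genotype as a term, passed a limma adjusted p of 0.05 for 5 of 13826 genes (percent called, 0.0362), 2 rising (0.0145%) and 3 falling (0.0217%) with Arntl. A slope of 1 is 1 log2 unit of the gene per log2 unit of Arntl.

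The 2 that rose were Slc41a3 and Trp53i11. Levels of Slc41a3 were 29.1, 12.1, 30.6, 12.2 and 8.64 FPKM in wild-type and 7.37, 5.17, 13.2, 7.62 and 5.52 FPKM in labelled knockout trained replicates 1 to 5, with replicates 1 and 3 of the wild type and replicate 3 of the labelled knockout the highest of their groups. Its slope was 1.22 ± 0.16 (limma adjusted p = 0.0481). Trp53i11, a gene induced by p53 (plus strand of chromosome 2, 93187548 to 93201759), was at 16.3, 11.9, 25.0, 10.8 and 7.53 FPKM and 9.34, 6.78, 13.8, 9.33 and 7.89 FPKM, a slope of 0.96 ± 0.11 (limma adjusted p = 0.0420). Replicate 3, the highest in Arntl of each group, was also the highest in Trp53i11.

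The 3 that fell were Per2, Tef and Gm45819. Levels of Per2 were 8.58, 18.2, 8.19, 18.9 and 22.2 FPKM in wild-type and 10.1, 13.9, 5.38, 10.5 and 17.01 FPKM in labelled knockout trained hearts, with a slope of -1.15 ± 0.14 (limma adjusted p = 0.0438). Tef was at 32.3, 46.4, 25.2, 42.4 and 44.0 FPKM and 33.2, 41.5, 22.3, 30.3 and 41.3 FPKM, with a slope of -0.69 ± 0.08 (limma adjusted p = 0.0420). Replicate 3 was the lowest of its group for both genes in both genotypes. Gm45819 was at 5.53, 7.24, 2.19, 5.98 and 12.1 FPKM and 8.01, 7.93, 2.74, 7.12 and 11.2 FPKM, with a slope of -1.37 ± 0.17 (limma adjusted p = 0.0438). All 5 genes are among the 290 called in sedentary hearts, in the same direction, which is 100% of the trained and 1.72% of the sedentary list.

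**Figure D4:**
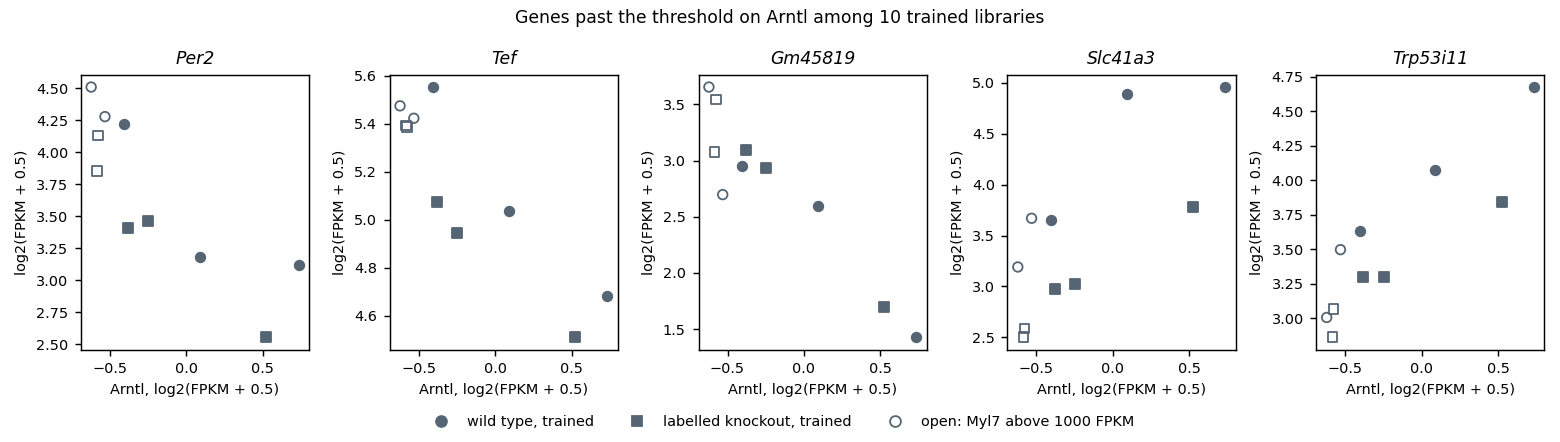
Level of the 5 genes past the threshold (y axis, log2(FPKM + 0.5)) against Arntl on the same scale (x axis) in the 10 trained hearts, with circles for wild type and squares for labelled knockout and open symbols for the 4 libraries with Myl7 above 1000 FPKM. The open symbols all lie at the low end of Arntl, 0.150 to 0.192 FPKM, and the slopes run from -1.37 for Gm45819 to 1.22 for Slc41a3.

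These calls rest on small margins. Without wild-type replicate 1 limma called 1 rising and 1 falling gene, without wild-type replicate 4 0 and 2, without wild-type replicate 5 1 and 0, and without any 1 of the other 7 libraries 0 and 0 (767 to 1073 rising and 972 to 1274 falling at an unadjusted p below 0.05). A pseudocount of 1 left 0 and 0 (901 and 1100 at an unadjusted p below 0.05), and the TPM scale, on which the median slope of all genes moved from 0.01 to -0.09, gave 0 and 5. The 4 trained libraries with the lowest Arntl, wild-type replicates 4 and 5 and labelled knockout replicates 2 and 5, were also the ones with atrial transcripts, Myl7 standing at 1355 to 3484 FPKM there and at most 2.88 FPKM in the other 6. The 6 atrial markers summed to 23.5 to 9194 FPKM over the trained hearts. Without those 4 libraries limma called 0 genes (182 rising and 235 falling at an unadjusted p below 0.05), and with log2 Myl7 as a further term 0 (162 and 194). limma voom on recovered reads, run over all 10, called 3 rising and 2 falling. Without the 4 libraries the slopes were -0.97 for Per2, -0.69 for Tef, -1.44 for Gm45819, 1.02 for Slc41a3 and 0.80 for Trp53i11.

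For the other clock genes the slopes are given with that limit. All 6 repressors had slopes under 0 at an unadjusted p below 0.05, beside 8.54% of all genes, and 1 of them, Per2, passed after adjustment. All 6 slopes stayed under 0 with the Myl7 term and without the 4 libraries, 4 of 6 and 5 of 6 at that level (1.4% and 1.7% of all genes), at medians of -0.64 and -0.67 against -0.66. Among the 17 outputs shared by many organs 8 were under 0 and 3 above 0 at that level, and 0 passed after adjustment. Those counts were 4 and 2 with the Myl7 term and 3 and 1 without the 4 libraries, and the median went from -0.20 to -0.12 and -0.11. The nearest to the threshold was Wee1, with a slope of -0.93 ± 0.13 (limma adjusted p = 0.0561). Ciart (-0.70 ± 0.12, limma adjusted p = 0.129), Per3 (-0.80 ± 0.12, 0.0865), Hlf (-1.04 ± 0.16, 0.0865) and Clock (0.47 ± 0.11, 0.175) did not pass. Over the genes called higher in sedentary hearts, 128 of 136 tested had a slope above 0 (94.1%, against 53.3% of all genes) and 55 had one at an unadjusted p below 0.05 (40.4%, against 7.28%). Over the 153 called lower, 132 had a slope under 0 (86.3%, against 46.7%), 68 of them at an unadjusted p below 0.05 (44.4%, against 8.54%), and 1 had a slope above 0 at that level. With the Myl7 term 116 of 136 (85.3%) and 127 of 153 (83%) had a slope in the direction of the sedentary call. At that level were 18 (13.2%) and 23 (15%) of them. The shares of all genes with that term were 52.6% and 47.4%, and 1.17% and 1.4% at that level. Without the 4 libraries 126 (92.6%) and 129 (84.3%) had a slope in the direction of the sedentary call, again 18 and 23 at that level. The shares of all genes were then 52.2% and 47.8%, and 1.32% and 1.7% at that level. The trained slope also went with exon length, at medians of -0.03, -0.01, 0.03 and 0.06 over the 4 bins from shortest to longest. The part of length in these counts was not tested.

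Some cardiac genes had slopes closer to 0 once the libraries with atrial transcripts were left out. The slope of Slc8a1 was 1.199 ± 0.42 (limma adjusted p = 0.239) over all 10 hearts, 0.76 without the 4 and 0.57 with the Myl7 term. That of Dgat2 was -0.47, -0.19 and -0.12 in the same order, that of Kcnh2 -0.53, -0.23 and -0.20, and that of Tfrc 0.76, 0.23 and 0.13. Rcan1 kept 0.64, 0.61 and 0.53, and Ciart was further from 0 without the 4 (-0.70, -0.91 and -0.92). None of these 6 passed after adjustment.

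Since the sets were unequal in genotype, the sedentary comparison of labelled knockout with wild type was made with and without the set as a term. Without it limma called 837 genes higher (percent called, 6.17) and 801 lower (5.91) in labelled knockout hearts. With it, 260 were called higher (1.92) and 397 lower (2.93), 4.85% in all, of which 241 and 337 were among the former. The median SE of the difference was 0.11 without the term, at 8 residual degrees of freedom, and 0.13 with it, at 7. On the TPM scale, which moved the median of all genes from -0.01 to 0.13, 417 were higher and 110 lower with the term, so that 79.1% were higher in place of 39.6%. Without wild-type replicate 5 the counts with the term were 58 and 83, without labelled knockout replicate 1 they were 12 and 15. Leaving out wild-type replicate 4 gave 488 higher genes, and leaving out labelled knockout replicate 4 gave 236 lower ones.

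No clock gene was called between genotypes in either fit. The median of the 6 repressors was 0.94 without and 0.02 with the term, at which 0 of 6 had an unadjusted limma p below 0.05. Per2 had a difference of 1.80 ± 0.63 (limma adjusted p = 0.0859) without and 0.33 ± 0.30 (0.657) with it. Glucocorticoid targets went from a median of 0.87 to 0.31. Dgat2 was called in 1 of the fits, at 0.08 ± 0.23 (limma adjusted p = 0.832) without and -0.46 ± 0.10 (limma adjusted p = 0.0305) with the term. Within the low set its single wild-type heart had 237 FPKM and the labelled knockout hearts 173 to 203 FPKM, and the high labelled knockout heart had 91.1 FPKM under 122 to 155 FPKM in the wild type.

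Genes of fuel oxidation kept their genotype difference in size but not in number of calls. TCA cycle genes were lower in 18 of 20 without and 9 of 20 with the term, at a median of -0.37 in both, and 20 of 20 had a difference under 0 with it at an unadjusted limma p below 0.05, beside 10.3% of all tested genes. Fatty acid oxidation genes were lower in 16 and 12 of 20 (medians -0.43 and -0.46) and complex I genes in 12 and 6 of 36 (-0.21 and -0.27). On the TPM scale with the term the 3 medians were -0.21, -0.32 and -0.11. Etfdh, which passes electrons from fatty acid oxidation to the respiratory chain, was at 88.4, 82.0, 102, 91.5 and 82.9 FPKM in wild-type and 60.4, 58.2, 51.9, 49.4 and 52.7 FPKM in labelled knockout replicates 1 to 5. Its difference was -0.71 ± 0.08 without the term (limma adjusted p = 0.000469) and -0.61 ± 0.09 with it (limma adjusted p = 0.00529). Of 25 coactivators and partners of PGC-1, 4 were lower without and 3 with the term (medians -0.23 and -0.11, and 0.04 with the term on the TPM scale).

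Slc41a3 was lower in labelled knockout hearts in both fits, with differences of -2.24 ± 0.44 without and -1.17 ± 0.16 with the term (limma adjusted p = 0.00328 with it). Bdh1, a ketone body enzyme picked after its values were seen, was at 52.3, 55.3, 17.4, 12.3 and 7.05 FPKM in wild-type replicates 1 to 5 and 1.85 to 3.21 FPKM in labelled knockout hearts, with a difference of -2.44 ± 0.59 with the term (limma adjusted p = 0.0436). Ucp2, an uncoupling protein homolog, rose by 1.24 ± 0.23 without and 0.78 ± 0.18 with the term (limma adjusted p = 0.00567 and 0.0305). Gdf15, the stress cytokine named in the title of the series, rose by 3.51 ± 0.26 (limma adjusted p = 0.000135) and Ppargc1a by 1.12 ± 0.18 (limma adjusted p = 0.00746) with the term. Of 13 genes of angiogenic signalling 5 were lower without and 1 with it, at a median of -0.30 and -0.31. The 1 was Kdr, the VEGF receptor (-0.68 ± 0.14, limma adjusted p = 0.0212). Of 8 macrophage markers 5 were higher without and 0 with the term, at medians of 0.44 and 0.43 and with 7 of 8 above 0 with it at an unadjusted limma p below 0.05, beside 7.8% of all tested genes. Their summed levels were 161 to 264 FPKM in the high and 203 to 300.2 FPKM in the low set.

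**Figure D5:**
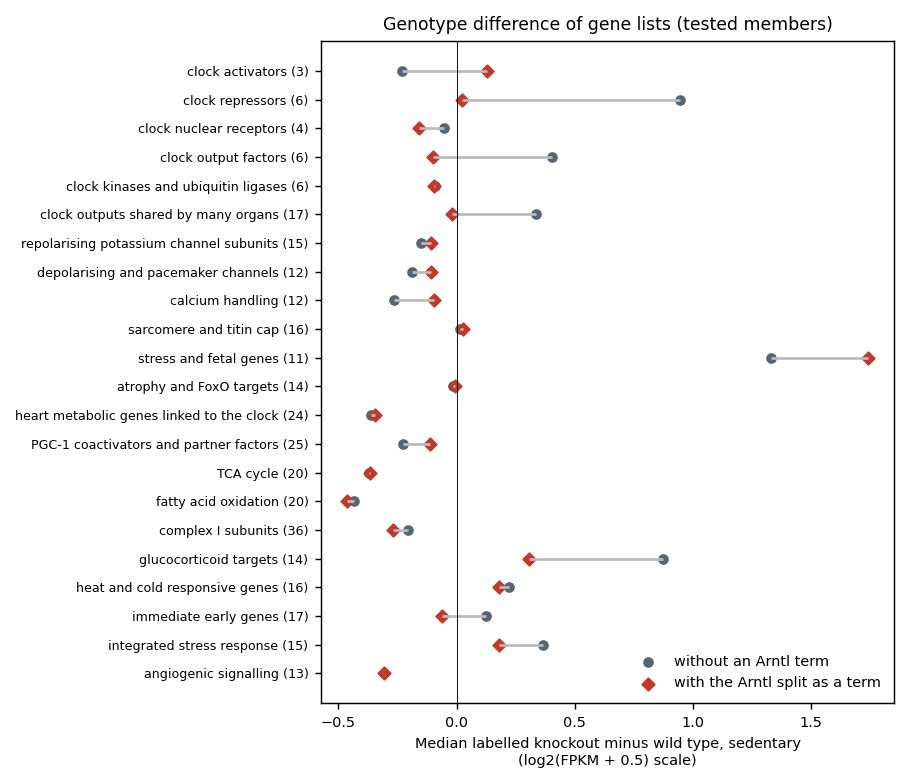
Median labelled knockout minus wild-type difference in sedentary hearts (x axis, log2(FPKM + 0.5) scale) of 22 gene lists, with the number of tested members in brackets, from the fit without the Arntl set (grey circles) and with it (red diamonds). Clock repressors move from 0.94 to 0.02 while the TCA cycle stays at -0.37.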

How the data were processed

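Heart RNA of 20 mice was measured in 4 groups of 5. The authors deposited 1 table of FPKM for 25851 genes, and values within a gene were whole multiples of 1 read in every library for 96.6% of genes, to a tolerance of 0.01. The depths in M reads given here were recovered from those steps. HISAT2 2.0.5, featureCounts 1.5.0-p3, DESeq2 1.20.0 and mm10 are named per the submitters' processing notes, with no roles. The strand setting of the counting is not given in the sources used here, so overlapping genes are uncertain. Coordinates are those of GENCODE gene models on GRCm38.

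Genes with a mean of at least 0.5 FPKM were fitted with limma 3.58.1 (R 4.3.3) on log2(FPKM + 0.5), with Benjamini-Hochberg adjustment over all tested genes. The slope on Arntl in the trained hearts and the genotype comparison were tested, and the high against low comparison was described. The library size behind the FPKM was 0.863 to 1.097 of the recovered reads. Relative to a median-ratio size factor it varied only from 0.996 to 1.003, so the deposited scale is close to a median ratio. The alternative scalings were a median ratio, which nearly repeats the deposited scale, and a rescaling to TPM. The fits were run on simulated data in which genes varied independently at 1 fixed dispersion. That check cannot vouch for the counts called in these hearts, which leaned on single hearts and went with exon length. The members and gene lists were chosen with earlier results of these data known, and limma voom on recovered reads was chosen after seeing the data. Genes named are the clock lists, the 12 largest differences in each direction among genes called by both rules whose higher set averaged 1 FPKM or more, up to 4 genes a list in order of the moderated statistic, the trained genes past 0.05, Ppargc1a and Gdf15, and genes stated as picked after their values were seen.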

Additional observations from a re-analysis of the deposited data

Results flagged for a closer look

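Among 88 genes named in the text, 188 groups of 5 libraries had levels to check, and in 61 of them 1 library lay apart from the other 4, with a gap to the nearest of more than 0.71 of the whole range. Chance gives about 1 in 20. Labelled knockout replicate 1, the only high library of its genotype, accounts for 40 and wild-type replicate 5, the only low one, for 18. These genes were mostly chosen for that difference, so the count adds nothing to it, and it was not tested.

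All values that follow are FPKM. In sedentary labelled knockout hearts replicate 1 was the highest for the clock and its outputs at Arntl 2.50, Clock 4.33, Leo1 4.69 and Tfrc 14.0. It was also the highest for genes of ion transport, contraction, signalling and connective tissue at Slc41a3 16.2, Slc8a1 43.7, Asph 13.1, Rcan1 40.9, Gsk3b 7.04, Ncor1 9.98, Pdgfra 5.33, Camk2d 12.2, Kcnd2 6.69, Ttn 42.7, Irs1 2.08, Colq 4.22 and Hif1a 19.5. Of the other genes it was the highest for Spon2 7.51, Epha4 10.1, Gm43535 9.96, Sacm1l 6.80, Zfp955a 3.57, Trp53i11 14.7, Gm24430 1.46, Gm17024 2.52, Gm16574 5.66 and 8030462N17Rik 6.92. It was the lowest of its group for the clock genes and shared outputs Per2 1.74, Per3 2.53, Tef 18.5, Hlf 2.62, Wee1 2.34, Tsc22d3 22.8 and Por 13.4. It was the lowest as well for Cys1 0.965, Adh1 2.31, Dgat2 91.1, Ucp2 21.3, Mthfd1l 0.188 and Ephx1 28.1.

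In sedentary wild-type hearts replicate 5 was the highest for the clock genes and shared outputs Per2 9.20, Per3 8.60, Ciart 18.7, Dbp 94.5, Tef 49.8, Hlf 9.72, Bhlhe41 6.69, Tspan4 27.7, Wee1 7.88 and Coq10b 11.01. It was the highest also for Gm45819 7.74, Cys1 4.00, Dgat2 237, Cirbp 34.9 and Mthfd1l 0.670, and the lowest for Npas2 0.367, Leo1 2.21 and Slc41a3 10.5. Of these, Per2, Per3, Tef, Hlf, Wee1, Leo1, Slc41a3, Cys1, Dgat2 and Mthfd1l had the lone library apart in both genotypes. The other 3 cases were labelled knockout replicate 3 of the trained hearts, the highest of its group in Arntl at 0.937, wild-type replicate 3, the highest sedentary wild-type heart in Kcnd2 at 7.70, and wild-type replicate 4, the highest in Cdkn1a, an inhibitor of the cell cycle, at 25.0.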

How the results depend on the processing

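Of 137 higher and 153 lower genes in the high Arntl hearts, other settings gave 26 and 31 with no filter on low values, 940 and 84 on the TPM scale, 1489 and 1061 with array weights, 949 and 578 with log2 Arntl as a number, 1598 and 1255 with no genotype term, and 650 and 382 with limma voom. A mean of at least 2 FPKM gave 232 higher and the labelled knockout libraries alone 355 higher. The wild-type libraries alone gave 0 and 0 with limma (409 and 415 at an unadjusted p below 0.05). Leaving out 1 library gave 1 to 1579 higher and 4 to 1167 lower genes.

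Of 2 rising and 3 falling genes in trained hearts, a pseudocount of 0.1 gave 6 and 9, which also rescales Arntl, no filter 1 and 0 (1509 and 1710 unadjusted) and array weights 51 and 62. limma gave 0 and 0 with a pseudocount of 1 and 0 and 0 with no genotype term (514 and 839 unadjusted), with log2 Myl7 as a term and without the libraries with Myl7 above 1000 FPKM. The TPM scale gave 0 (270 unadjusted) and 5. Leaving out 1 library gave 0 to 1 rising and 0 to 2 falling genes. Of 260 higher and 397 lower genes by genotype, the TPM scale gave 417 and 110, array weights 532 and 663, and no Arntl term 837 and 801, and no filter gave 242 lower. Leaving out 1 library gave 12 to 488 higher and 15 to 571 lower genes. The cause of these shifts was not tested. The genotype difference of Dgat2 changed sign, to 0.0847, with no Arntl term, and no other called value changed sign under the alternatives run.

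The groups share replicate numbers. Deviations of same-numbered libraries correlated at -0.178 to 0.364 in sedentary and -0.278 to 0.484 in trained hearts. With 5 libraries a group these values cannot decide whether the numbers pair them. With the replicate block the counts were 0 and 0 for high against low (354 and 413 unadjusted), 0 and 0 for the trained slope (504 and 549 unadjusted) and 37 higher and 22 lower by genotype. Not every library correlated best with its own number. Within a genotype the high against low difference rests on 1 library against 4, and 11 to 23 Arntl reads set the low level. The time of collection is not in the labels, and clock phase was not measured apart from these genes.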
